A study of Mus musculus with 11 samples.

Results

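The genes described here are 10 regulators of entry into the cell cycle: the 3 D cyclins (Ccnd1, Ccnd2, Ccnd3), their kinases Cdk4 and Cdk6, the inhibitors Cdkn1a, Cdkn1b, Cdkn1c and Cdkn2c, and Rb1. They were taken as a list of gene names for their known roles, with earlier results of these data known, out of 34547 genes in the files, of which 21200 were tested. Each gene's reads were followed in 11 RNA-seq libraries of podocytes, the epithelial cells that wrap the glomerular capillaries of the kidney. All mice were on a C57BL/6 background per the labels (C57BL/6N in the study's methods) and carried PodTOM, an allele that places Cre recombinase and the fluorophore mTomato under the podocin promoter, and podocytes were sorted by that fluorophore. Controls, called PodTOM here and WT in the labels, had the genotype PodCre/wt x MyD88wt/wt. MyD88pko mice combined PodTOM with homozygous floxed Myd88, so the deletion was limited to cells in which the podocin promoter is active. Nephrotoxic nephritis (NTN) was induced in males of 8 to 16 weeks by 2 tail vein injections of nephrotoxic sheep serum on consecutive days, each at 9 µl for every g of the mouse, and podocytes were taken on day 5 per the study's methods. The libraries comprised 3 of untreated PodTOM, 2 of untreated MyD88pko, 3 of PodTOM with NTN and 3 of MyD88pko with NTN mice. For the untreated mice the labels give only the range over the whole study, 8 to 52 weeks, and the number of mice behind a library is not given in the sources used here, so a p-value here reflects library-to-library spread, which may be technical.

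D cyclins are the growth factor-responsive subunits of Cdk4 and Cdk6, and the active kinases phosphorylate the retinoblastoma protein Rb1, which then releases E2F transcription factors. Inhibitors of the CIP/KIP family (p21 from Cdkn1a, p27 from Cdkn1b, p57 from Cdkn1c) bind cyclin-kinase complexes, while those of the INK4 family, such as p18 from Cdkn2c, bind Cdk4 and Cdk6 alone. Mature podocytes are known as cells that rest outside the cycle, with p27, p57 and cyclin D3 as the usual markers of that state, and loss of this arrest has been studied in glomerular injury.

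The estimated counts of a library, over all its transcripts, summed to between 14563271 and 32764201. Every nephritic library (20080140 or more) was deeper than every untreated one (19483013 or fewer). Levels are given as CPM, the usual rate of counts relative to library size, scaled by the TMM method, which removes differences in library composition but not in gene length. Myd88, the deleted gene, lay between 6.49 and 7.95 CPM in the untreated PodTOM libraries and between 7.97 and 14.1 CPM in those with NTN, against 0.200 to 0.976 and 0.464 to 0.485 CPM in MyD88pko, with no overlap of the genotypes. The summed level of 12 podocyte markers lay between 41475 and 53928 CPM without NTN and between 29565 and 42599 CPM with NTN. Of these 12, 9 fell with NTN in PodTOM podocytes and 5 in MyD88pko. For 10 markers of glomerular endothelium the sum lay between 56.5 and 112 CPM without NTN and between 112 and 273 CPM with NTN, with 6 higher in PodTOM and 2 in MyD88pko. With NTN this sum was 139 to 273 CPM in PodTOM and 112 to 126 CPM in MyD88pko, without overlap. The median log2 difference of these markers between nephritic MyD88pko and PodTOM was -0.85, with 0 called. The summed level of 8 mesangial and smooth muscle markers ranged over 86.9 to 139 CPM without and 105 to 213 CPM with NTN, and 3 of them rose in PodTOM, namely Acta2 (log2 fold change 3.05, adjusted p = 0.000538), Itga8 (2.90, adjusted p = 0.00173) and Gata3 (1.34, adjusted p = 0.0213), while in MyD88pko these genes had adjusted p of 0.0537, 0.747 and 0.27. That of 9 macrophage and monocyte markers ranged over 71.9 to 98.1 and 56.8 to 85.5 CPM. In PodTOM Ptprc (log2 fold change 1.10, adjusted p = 0.0427) and Itgam (means of 5.99 and 13 CPM, adjusted p = 0.033) rose and Csf1r fell (-0.77, adjusted p = 0.00977), and in MyD88pko Csf1r fell (-1.37, adjusted p = 0.000564) and Adgre1 had no counts without and a mean of 1.36 CPM with NTN. That of 6 parietal epithelial markers ranged over 35.4 to 85 and 72.3 to 113 CPM, with Cd44 called higher in PodTOM (1.44, adjusted p = 0.0233) and Cldn1 in MyD88pko (1.83, adjusted p = 7.09e-05). These marker genes are named after their values were seen. The 7 lymphocyte and neutrophil markers stayed at or below 13.7 CPM in sum. The 6 tubule markers, which included Umod besides proximal tubule genes, stayed at or below 97.1 CPM. Of them Cubn, also named after its values were seen, was called higher in MyD88pko (2.89, adjusted p = 0.00584). In all, 1 parietal, 1 macrophage and 2 lymphocyte or neutrophil markers were under 1 CPM in every library. Reads on 549 vomeronasal receptor genes, which podocytes are not known to use, amounted to between 62.4 and 98.7 CPM without NTN and between 141 and 444 CPM with NTN. Whether this vomeronasal signal had a part in the results below was not tested beyond leaving out the 3 libraries with most of it. These were PodTOM NTN replicate 1 and MyD88pko NTN replicates 1 and 2. They were chosen by that signal alone, and the part of other cell types was not tested. In such bulk libraries, fewer cells of a type and less RNA per cell cannot be told apart.

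To compare the genes with each other, counts were divided by transcript length (TPM). In untreated PodTOM podocytes Cdkn1c stood far above the rest, at 747 ± 43.5 TPM (SD, n = 3), and was followed by Cdkn1a (69.5 ± 9.11 TPM) and Rb1 (63.3 ± 8.91 TPM), whose libraries overlapped. Ccnd3 was the most abundant D cyclin, at 38.7 ± 10.6 TPM, against 6.04 ± 0.882 TPM for Ccnd1 and 2.05 ± 1.19 TPM for Ccnd2, and these 3 did not overlap. Cdk4 (23 ± 3.12 TPM), Cdkn1b (22.4 ± 7.01 TPM) and Cdk6 (21.5 ± 2.82 TPM) lay within each other's spread, and Cdkn2c was at or near 0. The untreated MyD88pko podocytes gave the same order of group means. In nephritic PodTOM podocytes Cdk6 (32.9 ± 4.41 TPM) and Ccnd1 (23.5 ± 6.58 TPM) lay above Cdkn1b (11.4 ± 1.38 TPM), each without overlap, whereas untreated Ccnd1 lay below untreated Cdkn1b.

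Nephritis changed 6 of the 10 genes in PodTOM podocytes. Ccnd1, Cdk6, Cdkn1a and Cdkn1c rose, while Cdkn1b and Rb1 fell. In MyD88pko podocytes 4 genes changed, and Ccnd1, Cdk6 and Cdkn1c again rose and Rb1 fell. Among all tested genes, NTN raised 15.9% and lowered 9.93% in PodTOM and raised 11.3% and lowered 8.22% in MyD88pko podocytes at an adjusted p under 0.05, so changes of this kind were common in these libraries. All 10 genes passed the filter on low counts, Cdkn2c only through its nephritic libraries. The median log2 fold change of the 10 genes, Cdkn2c included, was 0.62 in PodTOM and 0.55 in MyD88pko, beside 0.19 and 0.16 for all genes tested. Given how Cdkn2c passed the filter, its high values (3.34 and 6.04) were favoured in advance, and they raise both medians. These medians are therefore not read as a result about the set. The centre of all genes depended on the scale, with medians of -0.16 and -0.05 on log2(TPM + 1), where 28.8% of the called genes in PodTOM and 41.9% in MyD88pko were higher, against 61.6% and 57.8% with TMM. The directions of the called members were kept on that scale.

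**Figure D1:**
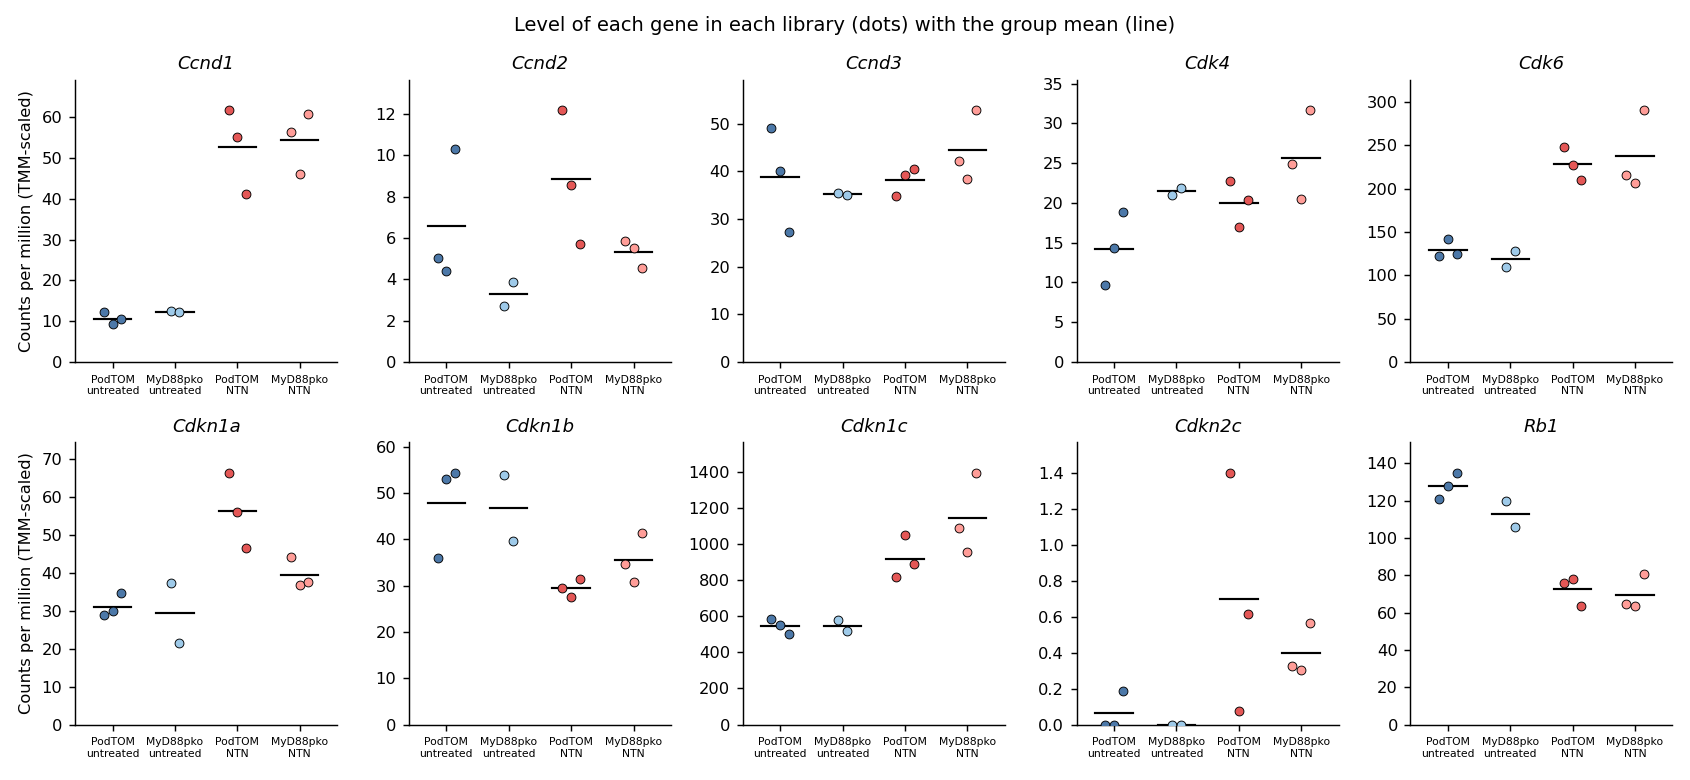
CPM of each of the 10 genes in each of 11 libraries (dots) with group means (lines), on linear axes from 0. For Ccnd1, Cdk6 and Cdkn1c every nephritic library lay above every untreated one, and for Rb1 every nephritic library lay below.

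Ccnd1, on chromosome 7 (GRCm38, bases 144929931 to 144939925, minus strand), encodes cyclin D1 and had the largest log2 fold change among the members that passed the test. Its level was 12.2, 9.2 and 10.5 CPM in untreated and 61.8, 55.1 and 41.2 CPM in nephritic PodTOM podocytes. In MyD88pko it was 12.4 and 12.2 CPM without and 56.5, 46.2 and 60.9 CPM with NTN. The lowest nephritic library thus exceeded the highest untreated one by far in either genotype. The log2 fold change was 2.31 (SE 0.201, adjusted p = 2.63e-06) in PodTOM, or 4.96-fold with a 95% confidence interval of 3.7 to 6.67, and 2.15 (SE 0.233, adjusted p = 2.62e-05) in MyD88pko, or 4.44-fold with an interval of 3.16 to 6.24. Without the 3 libraries named above, the log2 fold changes of Ccnd1 kept their direction and their calls.

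The other D cyclins did not pass the test. Ccnd2, which encodes cyclin D2, was at 5.02, 4.4 and 10.3 CPM in untreated and 12.2, 8.59 and 5.73 CPM in nephritic PodTOM podocytes, and these values overlapped. In MyD88pko it was at 2.73 and 3.87 CPM without and 5.86, 5.51 and 4.54 CPM with NTN, which did not overlap but missed the threshold (log2 fold change 0.68, SE 0.439, adjusted p = 0.267). Ccnd3, for cyclin D3, was at 49.2, 40.1 and 27.2 CPM in untreated and 34.8, 39.3 and 40.4 CPM in nephritic PodTOM podocytes, with a log2 fold change of -0.02 and a 95% interval of -0.45 to 0.40. Its level in MyD88pko was 35.4 and 35 CPM without and 42.2, 38.4 and 52.9 CPM with NTN (log2 fold change 0.34, interval -0.14 to 0.82). The intervals leave room for changes of Ccnd3 in either direction in PodTOM, but not for one of the size seen for Ccnd1.

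Of the kinases, Cdk6 rose. Its level was 122, 142 and 125 CPM in untreated and 248, 227 and 210 CPM in nephritic PodTOM podocytes, and 110 and 128 against 216, 207 and 291 CPM in MyD88pko. All nephritic libraries lay above all untreated ones, with log2 fold changes of 0.81 (SE 0.157, adjusted p = 0.0016) and 1.00 (SE 0.18, adjusted p = 0.00137). Cdk4, the kinase of the same substrate, was at 9.67, 14.3 and 18.8 CPM in untreated and 22.7, 17 and 20.4 CPM in nephritic PodTOM podocytes, and the groups overlapped (log2 fold change 0.49, SE 0.248, adjusted p = 0.15). In MyD88pko, Cdk4 was at 21 and 21.9 CPM without and 24.9, 20.5 and 31.7 CPM with NTN (log2 fold change 0.26, SE 0.276, adjusted p = 0.52). On the log2(TPM + 1) scale the PodTOM value of Cdk4 turned to -0.19, also without a call. The difference between the responses of the 2 kinases was not tested.

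RefSeq promoter windows (GRCm38.p6), from 250 bases before to 50 bases after an annotated start, were at hand for 6 of the 10 genes, in 9 windows. The window of Cdk6 is shown because its start, on the plus strand of chromosome 5 at base 3343893, is that of the transcript Cdk6-202, which carried nearly all reads of the gene. Capitals mark the letters TATAA, 103 bases before the start, and CACGTG, an E box, 220 bases before it.
Cdk6, chr5:3343643-3343942: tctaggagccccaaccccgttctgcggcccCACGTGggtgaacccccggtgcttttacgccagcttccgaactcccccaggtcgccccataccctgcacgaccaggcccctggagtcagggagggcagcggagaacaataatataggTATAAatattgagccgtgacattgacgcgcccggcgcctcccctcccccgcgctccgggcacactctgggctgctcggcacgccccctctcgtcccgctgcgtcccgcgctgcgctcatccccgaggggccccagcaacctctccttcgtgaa
On either strand, TATAA was found in 24.9% and CACGTG in 7.15% of 32851 windows of this length. Each match is a stretch of letters and not a measured binding site.

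The 3 CIP/KIP inhibitors moved in different directions. Cdkn1c (p57), on chromosome 7 from 143458339 to 143461050, rose in both genotypes from a level that was already high. It was at 582, 553 and 502 CPM in untreated and 815, 1050 and 891 CPM in nephritic PodTOM podocytes, and at 577 and 519 against 1090, 953 and 1394 CPM in MyD88pko. There was no overlap with untreated libraries in either genotype. The log2 fold changes were 0.75 (SE 0.162, adjusted p = 0.00347) and 1.06 (SE 0.187, adjusted p = 0.00118). Cdkn1b (p27), on chromosome 6 from 134920401 to 134925513, fell in PodTOM podocytes, from 35.9, 53.1 and 54.4 CPM to 29.6, 27.6 and 31.4 CPM (log2 fold change -0.70, SE 0.196, adjusted p = 0.0167), with no overlap. The call was lost without untreated PodTOM replicate 2 (adjusted p = 0.0522), without replicate 3 (adjusted p = 0.0675), and without the 3 libraries richest in vomeronasal receptor reads (adjusted p = 0.0633), while the log2 fold change stayed between -0.90 and -0.59 in all alternatives. In MyD88pko, Cdkn1b was at 54 and 39.6 CPM without and 34.7, 30.7 and 41.3 CPM with NTN, and the groups overlapped (log2 fold change -0.39, SE 0.216, adjusted p = 0.193).

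The Cdkn1b window, upstream of the start of its main transcript Cdkn1b-202 at base 134920401 of the plus strand, is shown because this gene and Cdk6 moved in opposite directions. Capitals mark CCAAT or its reverse complement, and the GC box GGGCGG.
Cdkn1b, chr6:134920151-134920450: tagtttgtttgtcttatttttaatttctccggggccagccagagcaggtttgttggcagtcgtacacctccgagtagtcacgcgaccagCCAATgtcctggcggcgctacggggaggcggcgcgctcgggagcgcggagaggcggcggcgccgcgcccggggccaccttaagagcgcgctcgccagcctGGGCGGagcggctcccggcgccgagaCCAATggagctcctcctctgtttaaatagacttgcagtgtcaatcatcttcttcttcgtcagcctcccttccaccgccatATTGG
CCAAT was found on either strand in 37.4% of all windows and GGGCGG in 35.7%. Neither window held TGACTCA (an AP-1 site, in 5.20% of all windows), GTAAACA (a forkhead site, 3.65%), or the E2F site forms TTTGGCGC (0.514%) and TTTCCCGC (1.07%).

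Cdkn1a (p21), a classical target of p53, rose in PodTOM podocytes. It was at 28.9, 29.9 and 34.7 CPM in untreated and 66.5, 56 and 46.6 CPM in nephritic libraries, with no overlap (log2 fold change 0.85, SE 0.206, adjusted p = 0.00686). The call was lost on the log2(TPM + 1) scale (0.45, adjusted p = 0.228) and without the 3 libraries richest in vomeronasal receptor reads (0.72, adjusted p = 0.0675). In MyD88pko podocytes it was at 37.5 and 21.6 CPM without and 44.2, 36.8 and 37.6 CPM with NTN. These groups overlapped, and the log2 fold change of 0.42 (95% interval -0.07 to 0.91, adjusted p = 0.196) did not pass. The difference between the 2 responses of Cdkn1a was -0.44 (SE 0.306, adjusted p = 0.947), so the responses were not shown to differ.

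The annotation gives Cdkn1a a pair of start sites on the plus strand of chromosome 17, and both windows are shown since a separate transcript begins at each. Cdkn1a-202 begins at base 29090979 and Cdkn1a-201 at base 29093769. In the upstream window capitals mark the letters GAACATGTC and, 2 bases further on, their reverse complement, which begin 51 and 40 bases before the start, and TATAA on the other strand. In the downstream window they mark TATAA, 25 bases before the start, and GGGCGG at 104 and 46 bases before it.
Cdkn1a upstream start, chr17:29090729-29091028: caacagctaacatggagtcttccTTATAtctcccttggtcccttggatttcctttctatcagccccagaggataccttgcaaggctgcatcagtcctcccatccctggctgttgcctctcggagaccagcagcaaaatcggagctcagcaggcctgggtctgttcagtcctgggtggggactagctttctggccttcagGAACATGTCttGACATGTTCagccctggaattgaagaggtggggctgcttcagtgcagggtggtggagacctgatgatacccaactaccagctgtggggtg
Cdkn1a downstream start, chr17:29093519-29093818: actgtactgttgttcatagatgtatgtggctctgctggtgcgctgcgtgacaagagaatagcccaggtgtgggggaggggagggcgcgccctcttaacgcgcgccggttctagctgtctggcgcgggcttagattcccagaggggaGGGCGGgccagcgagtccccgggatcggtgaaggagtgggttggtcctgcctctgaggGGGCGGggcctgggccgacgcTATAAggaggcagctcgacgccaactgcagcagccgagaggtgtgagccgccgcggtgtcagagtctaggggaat
GAACATGTC, a form of the half-site to which p53 binds, occurred on either strand in 50 of 32851 windows (0.152%). It was chosen for display after the windows had been read.

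Cdkn2c (p18), the INK4 inhibitor in the list, was barely detected. Untreated PodTOM libraries held 0, 0 and 3 counts and untreated MyD88pko libraries 0 and 0 counts. Nephritic PodTOM libraries held 30, 2 and 13 counts and nephritic MyD88pko libraries 8, 7 and 17 counts. Summed over a group and corrected for depth, the ratio was 10.5 in PodTOM with a counting interval of 3.36 to 52.6, and at least 4.14-fold higher in MyD88pko against a floor of 3 counts over the group. These bounds cover counting error only, and the tests over libraries did not pass (adjusted p = 0.13 and 0.106). Cdkn2c passed the count filter only through nephritic libraries, so a higher level there was favoured in advance. The highest nephritic level, 1.4 CPM in PodTOM replicate 1, was in the library with the most vomeronasal receptor reads.

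Rb1, the substrate of the D cyclin kinases, fell. On chromosome 14 from 73183673 to 73325822, it was at 121, 128 and 135 CPM in untreated and 75.7, 78 and 63.7 CPM in nephritic PodTOM podocytes, and at 120 and 106 against 64.7, 63.6 and 80.6 CPM in MyD88pko. No nephritic library reached the lowest untreated one. The log2 fold changes were -0.82 (SE 0.15, adjusted p = 0.00115) and -0.70 (SE 0.165, adjusted p = 0.00798). The MyD88pko call was lost without untreated replicate 1 (-0.61, adjusted p = 0.103) and without the 3 libraries richest in vomeronasal receptor reads (-0.45, adjusted p = 0.305), which leaves a single nephritic MyD88pko library that is assumed to vary like the others.

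**Figure D2:**
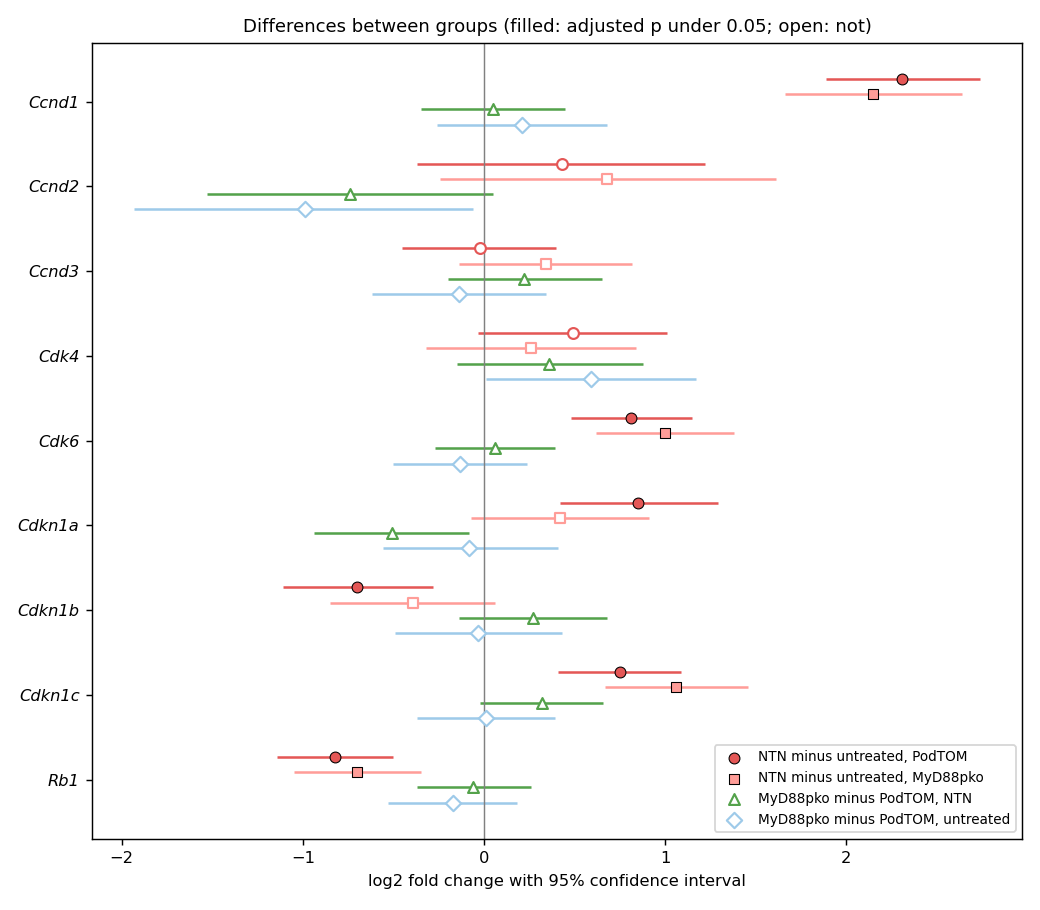
Log2 fold changes of 9 genes with 95% confidence intervals for the 2 comparisons of NTN with untreated and the 2 comparisons of MyD88pko with PodTOM, filled where the adjusted p is under 0.05. Cdkn2c is left out because its untreated libraries held 3 counts in all. Filled symbols occur in the NTN comparisons alone, 6 in PodTOM and 4 in MyD88pko.

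Counted by overlap of single libraries, 4 genes were higher and 2 lower in every nephritic PodTOM library than in any untreated one, beside 26.8% and 16.0% of all genes tested. In MyD88pko, with 2 untreated libraries, 6 were higher and 1 lower, beside 29.1% and 22.5%. The 6 include Cdkn2c, which passed the count filter only through nephritic libraries, so its separation is not a result of its own. Such separation was thus common among all genes.

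The loss of Myd88 itself was not followed by a called change in any of the 10 genes. In nephritic podocytes 0 of 10 differed between MyD88pko and PodTOM with edgeR and with DESeq2, and 0 of the 9 that limma tested on log2(TPM + 1). Among all genes edgeR called 0.0613% of 21200, and DESeq2 called 131 of the 34547 given to it. Of 17557 genes, limma called 9 higher and 3 lower. At an unadjusted edgeR p under 0.05 there was 1 of 10, Cdkn1a, beside 6.04% of all genes. Its nephritic MyD88pko libraries (44.2, 36.8 and 37.6 CPM) all lay below those of PodTOM (66.5, 56 and 46.6 CPM), with a log2 difference of -0.51 (95% interval -0.94 to -0.08, adjusted p = 0.726). The intervals allowed limited differences for Ccnd1 (-0.35 to 0.45), Cdk6 (-0.27 to 0.39), Cdkn1c (-0.02 to 0.66) and Rb1 (-0.37 to 0.26). They were wider for Cdk4 (-0.15 to 0.88), Ccnd2 (log2 difference -0.74, interval -1.53 to 0.05) and Cdkn2c (-3.71 to 2.11). Larger differences of these genes were thus not excluded. In untreated podocytes 0 of 10 differed with edgeR and DESeq2, and 0 of 9 with limma. Out of the same totals of genes, edgeR called 0.0189%, DESeq2 called 37 genes and limma 1. Of the 10 members, 2, Ccnd2 and Cdk4, had an unadjusted edgeR p under 0.05, beside 5.60% of all genes. Ccnd2 was at 2.73 and 3.87 CPM in untreated MyD88pko against 5.02, 4.4 and 10.3 CPM in PodTOM (log2 difference -0.99, SE 0.444, adjusted p = 0.886), and Cdk4 at 21 and 21.9 against 9.67, 14.3 and 18.8 CPM (0.59, SE 0.275, adjusted p = 0.886). Neither pair of groups overlapped, nor did that of Rb1 (106 and 120 CPM in untreated MyD88pko against 121 to 135 CPM in PodTOM). The adjusted p of each was far from the threshold. How many of all genes separated in this way between genotypes, untreated or nephritic, was not counted. Such separation is therefore not read as a result, here or for Cdkn1a above. The difference between the NTN responses of the genotypes passed for 0 of 10 genes with edgeR and DESeq2 and 0 of 9 with limma. Out of the same totals of genes, it passed for 0.00472% with edgeR, 44 genes with DESeq2 and 0 with limma. Of the 10 members, 0 had an unadjusted edgeR p under 0.05, beside 5.81% of all genes. The interval of this difference was -0.78 to 0.45 for Ccnd1, -0.31 to 0.68 for Cdk6, -0.20 to 0.82 for Cdkn1c, -0.36 to 0.59 for Rb1 and -0.32 to 0.92 for Cdkn1b, which does not show that the genotypes responded alike.

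Annotated transcripts were then tested one by one. The 10 genes had 66 transcripts in the files, of which 30 passed the filter, and 16 held at least 10% of the counts of their gene. Of these 16, 14 were tested. In PodTOM podocytes 3 rose and 1 fell, beside 3.09% and 2.34% of 58207 transcripts tested, and in MyD88pko 4 rose, beside 2.60% of transcripts higher and 1.70% lower. Ccnd1-201 carried 98.4% of the Ccnd1 counts, Cdk6-202 99.6% of those of Cdk6 and Rb1-201 97% of those of Rb1. Ccnd1-201 rose with log2 fold changes of 2.53 and 2.38 (adjusted p = 0.000266 and 0.00107), Cdk6-202 with 0.91 and 1.22 (adjusted p = 0.00913 and 0.00478), and Rb1-201 fell in PodTOM (-0.72, adjusted p = 0.0202) but missed the threshold in MyD88pko (-0.49, adjusted p = 0.123). The PodTOM call of Rb1-201 was lost in 5 of 11 fits without 1 library, each of them a PodTOM library (adjusted p up to 0.0618). Cdkn1b-202, with 92.9% of its gene's counts, did not pass (-0.60 and -0.16, adjusted p = 0.0838 and 0.699), nor did Ccnd2-201, with 94.2% (0.43 and 0.88, adjusted p = 0.635 and 0.348). Cdkn2c-202 and Cdkn2c-201 were not tested because their counts were too low.

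For Cdkn1c, the 2 main transcripts moved unequally. Both are on the minus strand, and Cdkn1c-201 reaches to base 143461050 whereas Cdkn1c-202 begins at base 143460996. Cdkn1c-201 was at 12, 76.7 and 62 CPM in untreated and 285, 358 and 169 CPM in nephritic PodTOM podocytes, and at 54.1 and 43.4 against 395, 337 and 326 CPM in MyD88pko. Its nephritic libraries all lay above the untreated ones, and its share of the gene went from between 2.16% and 14.7% to between 19.4% and 33.3%. The log2 fold changes of Cdkn1c-201 were 2.43 (SE 0.548, adjusted p = 0.034) and 2.85 (SE 0.656, adjusted p = 0.0402). The call was lost in 7 of 11 fits that left out 1 library in PodTOM (adjusted p = 0.00932 to 0.0977), among them those without PodTOM NTN replicate 1 or 2 or untreated replicate 3. In MyD88pko it was lost in 8 of 11 (adjusted p = 0.00146 to 0.282), with log2 fold changes of 2.71 to 3.03. Cdkn1c-202 was at 503, 396 and 373 CPM in untreated and 472, 552 and 580 CPM in nephritic PodTOM podocytes (0.33, SE 0.178, adjusted p = 0.297), and rose in MyD88pko from 418 and 380 to 666, 603 and 914 CPM (0.87, SE 0.204, adjusted p = 0.0424), a call lost in 9 of 11 such fits. The difference between the transcripts was not tested, and kallisto divides reads between transcripts that share most of their exons.

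The 3 Cdkn1a transcripts each held a sizeable share. Cdkn1a-202, from the upstream start, was at 1, 4.06 and 12.4 CPM in untreated and 28.9, 17.5 and 13.5 CPM in nephritic PodTOM podocytes (log2 fold change 1.78, SE 0.68, adjusted p = 0.162). Cdkn1a-201, from the downstream start, was at 1.87, 11.7 and 13.3 CPM and at 33.7, 31 and 21.3 CPM (1.68, SE 0.546, adjusted p = 0.108). Neither passed, although every nephritic PodTOM library was above every untreated one. Cdkn1a-203, which begins at base 29097900 within the gene, was at 24.8, 12.5 and 7.33 CPM in untreated and 7.08, 8.79 and 10.5 CPM in nephritic PodTOM podocytes (-0.76, SE 0.513, adjusted p = 0.42). In untreated PodTOM replicate 1 it held 89.6% of the Cdkn1a counts, and Cdkn1c-201 held 2.16% of the Cdkn1c counts there, the extremes among the untreated libraries. That library also had the fewest counts and the fewest genes detected, 18420, and its part in these shares was not tested.

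**Figure D3:**
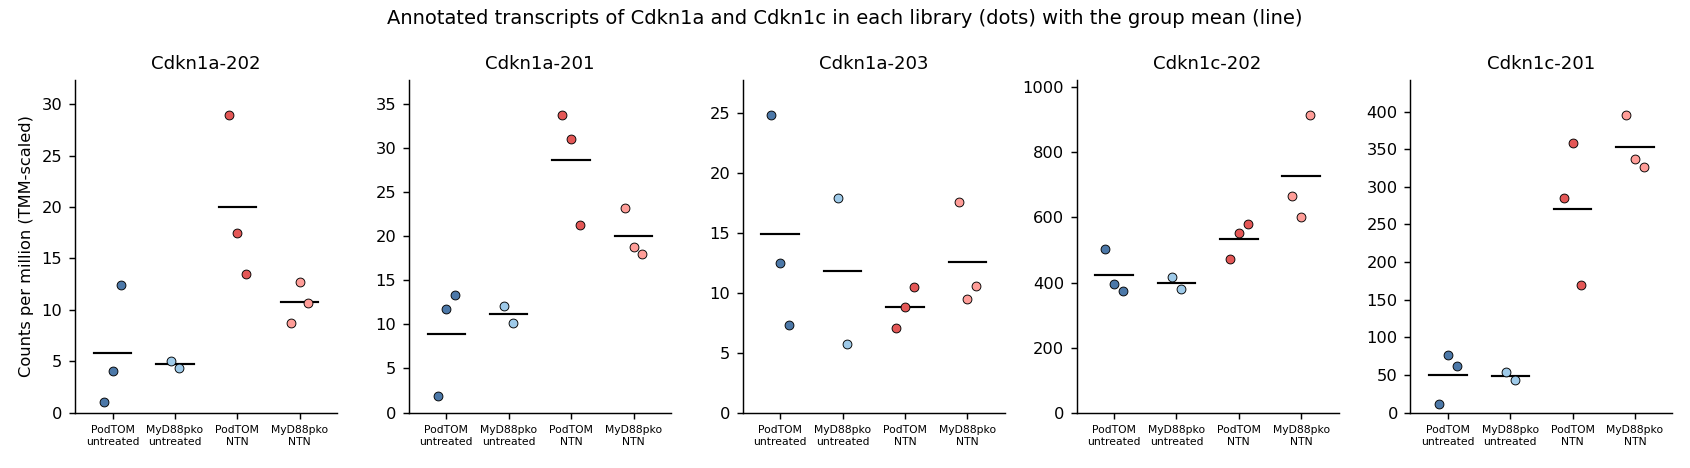
CPM of 3 Cdkn1a and 2 Cdkn1c transcripts in each of 11 libraries (dots) with group means (lines), on linear axes from 0. Cdkn1c-201 lay at or below 76.7 CPM in untreated and at or above 169 CPM in nephritic libraries, while the Cdkn1a-203 values of the groups overlapped.

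Some of the reads given to Ccnd3 and Cdk4 belonged to transcripts annotated as retaining an intron. Ccnd3-205, which encodes cyclin D3, held 79.2% of the Ccnd3 counts and was at 37.5, 21.7 and 17.3 CPM in untreated and 29, 31.5 and 32.9 CPM in nephritic PodTOM podocytes (log2 fold change 0.29, SE 0.271, adjusted p = 0.589). The retained intron transcript Ccnd3-216 held 10.6% and was at 5.45, 9.58 and 5.22 against 3.48, 3.87 and 3.07 CPM (-0.96, SE 0.418, adjusted p = 0.212). Its nephritic libraries lay below the untreated ones without passing the test. Of Cdk4, the coding transcript Cdk4-201 held 42.4% and the retained intron transcript Cdk4-207 held 44.7% of the counts. Cdk4-201 was at 0, 1.98 and 4.21 CPM in untreated and 8.59, 7.81 and 7.96 CPM in nephritic PodTOM podocytes (1.97, SE 0.951, adjusted p = 0.256), and Cdk4-207 at 5.33, 9.59 and 8.67 against 13.1, 8.69 and 9.05 CPM (0.38, SE 0.316, adjusted p = 0.526). The level of Cdk4 as a gene therefore rested in large part on reads assigned to a transcript not annotated as coding.

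The library preparation did not keep the strand, so reads from overlapping genes on the other strand cannot be told apart where exons overlap. Ccnd1 shares 1100 exon bases with LTO1, Cdk4 641 with Tspan31, Ccnd3 361 with Bysl, and Rb1 408 with Lpar6 and 488 with Rcbtb2. Cdkn1c shares 625 with Gm44732, Cdk6 368 with Gm17590, Cdkn1a 273 with AC167363.2, and Ccnd2 368 with 9330179D12Rik and 372 with Gm43126, genes that were not among those tested, and no such overlap was found for Cdkn1b and Cdkn2c. LTO1 was at a mean of 17.8 CPM in untreated and 19.6 CPM in nephritic PodTOM podocytes and did not pass (log2 fold change 0.14, adjusted p = 0.694), nor did Tspan31 (0.17, adjusted p = 0.449), Bysl (-0.21, adjusted p = 0.635) or Rcbtb2 (-0.47, adjusted p = 0.184). Lpar6, which lies in an intron of Rb1, fell with it (-0.55, adjusted p = 0.0361, and -0.78, adjusted p = 0.013 in MyD88pko). The share of reads that overlapping exons exchanged was not tested.

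Around these genes, 8 pathway lists held 83 tested genes, of which 6 rose (7.23%) and 14 fell (16.9%) in PodTOM and 6 rose (7.23%) and 10 fell (12%) in MyD88pko, to be read against the shares of all genes given above (15.9% and 9.93%, and 11.3% and 8.22%). Of the 5 other INK4 inhibitors and pocket proteins, 3 were tested, and Rbl2, which encodes the Rb1 relative p130 that is abundant in resting cells, fell from 94.2, 79.7 and 98.4 to 50.4, 68.2 and 49.2 CPM in PodTOM podocytes (log2 fold change -0.70, adjusted p = 0.00623) and in MyD88pko (-0.64, adjusted p = 0.0213). Rbl1 (p107) and Cdkn2d (p19) did not pass in either genotype. Cdkn2a, the gene of p16 and p19ARF, had no reads in any library, and Cdkn2b (p15) stayed at or below 0.334 CPM. The list's median log2 fold change was 0.30 in PodTOM and 0.20 in MyD88pko, beside 0.19 and 0.16 for all genes.

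Of 10 genes of the E2F and DP families, 3 rose and 1 fell in PodTOM and 2 rose and 1 fell in MyD88pko podocytes, with medians of 0.37 and 0.25. E2f1, an activator, was at 33, 36.4 and 37 CPM in untreated and 137, 119 and 87.6 CPM in nephritic PodTOM podocytes (1.69, adjusted p = 4.61e-05). In MyD88pko it was at 52.7 and 83.7 CPM without and 165, 147 and 111 CPM with NTN (1.05, adjusted p = 0.00575), so both genotypes separated from their untreated libraries. The repressor E2f8 rose as well (1.49, adjusted p = 0.00419, and 1.53, adjusted p = 0.0115). E2f7, its close relative, passed in PodTOM (0.96, adjusted p = 0.0381) and had a log2 fold change of 1.04 in MyD88pko (adjusted p = 0.0565). Tfdp2, a dimer partner of E2F proteins, fell in PodTOM and MyD88pko (-0.82, adjusted p = 0.00152, and -0.71, adjusted p = 0.00988). In the MuvB core of the DREAM complex, which represses cycle genes in resting cells, 1 of 5 genes rose in each genotype, namely Lin37 (1.26, adjusted p = 0.0327, and 1.86, adjusted p = 0.0137), with list medians of -0.07 and -0.06, and Lin9, Lin52, Lin54 and Rbbp4 did not pass.

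Genes that act after the D cyclins gave a mixed picture. Of 10 cyclins, kinases and phosphatases of late G1 to mitosis, 1 was called in each genotype, and the medians were 0.18 and -0.23. It was Ccne2, for cyclin E2, which went from 11.4, 8.11 and 6.9 to 3.63, 4.33 and 4.5 CPM in PodTOM podocytes (-1.07, adjusted p = 0.0196) and also fell in MyD88pko (-1.53, adjusted p = 0.00603). Of 16 markers of DNA replication and mitosis, 2 were called higher and 1 lower in PodTOM and 1 higher in MyD88pko, Bub1 counted in both, with medians of 0.71 and -0.06. Mki67, the proliferation marker Ki-67, was at 0, 0.795 and 0.754 CPM in untreated and 43.3, 18.9 and 11.6 CPM in nephritic PodTOM podocytes (5.48, adjusted p = 0.0045), and at 0 and 2.2 against 13.9, 8.92 and 8.75 CPM in MyD88pko (3.25, adjusted p = 0.0646). The highest Mki67 level was again in PodTOM replicate 1. Bub1, a mitotic checkpoint kinase, had no counts in the untreated libraries, passed the count filter only through nephritic ones, so that it had to differ, and was at least 23.9-fold higher in nephritic PodTOM and at least 8.02-fold higher in nephritic MyD88pko podocytes, against 3 counts over the group. Mcm4, a subunit of the replicative helicase, fell in PodTOM podocytes (-0.90, adjusted p = 0.0143) and had a log2 fold change of -0.30 in MyD88pko (adjusted p = 0.434).

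Of 20 genes of p53 and its targets besides Cdkn1a, 5 fell in PodTOM podocytes and 2 rose and 4 fell in MyD88pko, with medians of -0.03 in both. Trp53inp1 went from 200, 177 and 175 to 47.7, 63.9 and 58.2 CPM in PodTOM (-1.70, adjusted p = 2.89e-06) and from 160 and 168 to 88.8, 76.4 and 82 CPM in MyD88pko (-0.99, adjusted p = 0.000674). Btg2, an inhibitor of proliferation, went from 690, 891 and 775 to 278, 303 and 446 CPM in PodTOM (-1.20, adjusted p = 0.000352) and fell in MyD88pko too (-0.74, adjusted p = 0.0177). Sesn1, a stress-induced regulator of growth signalling, fell in both (-1.07, adjusted p = 0.00322, and -0.81, adjusted p = 0.0322). Gadd45a, a stress gene of growth arrest, fell in PodTOM (-0.71, adjusted p = 0.0077) and had -0.37 in MyD88pko (adjusted p = 0.17). These 4 genes were picked by their adjusted p in PodTOM, where 15 of the 20 genes were not called. Trp53, named after its values were seen, had log2 fold changes of 0.66 in PodTOM and 0.68 in MyD88pko (adjusted p = 0.0502 and 0.0845). How any of these relate to Cdkn1a was not tested. The 2 that rose in MyD88pko, named after their values were seen, were Perp (4.60, adjusted p = 0.00202) and Eda2r, which had no counts in its untreated libraries and was at least 12-fold higher with NTN. Perp was near the floor in untreated MyD88pko, at 0.195 and 0.0668 CPM, so the size of its fold change is uncertain. In PodTOM, Perp and Eda2r had log2 fold changes of 1.27 and 1.01 (adjusted p = 0.107 and 0.4).

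Of 16 genes that regulate D cyclins and p27, 3 fell in PodTOM and 1 fell in MyD88pko, with medians of -0.22 and -0.16. Foxo3, a forkhead factor known to induce Cdkn1b and to repress D cyclins in other cells, went from 279, 282 and 261 to 104, 123 and 105 CPM in PodTOM (-1.30, adjusted p = 2.27e-05) and from 301 and 244 to 107, 117 and 137 CPM in MyD88pko (-1.18, adjusted p = 0.000182). Its relative Foxo1 fell in PodTOM (-0.59, adjusted p = 0.0429), as did Fbxo4, an F-box protein linked to the breakdown of cyclin D1 (-0.85, adjusted p = 0.0254), and neither passed in MyD88pko. Of the 4 genes of Cdk5, a kinase of post-mitotic cells such as neurons and podocytes, and its activators, 3 were tested and 2 fell in both genotypes, with medians of -0.99 and -1.26. These were Ccni, for cyclin I (-0.99, adjusted p = 0.00157, and -1.26, adjusted p = 0.000757), and Cdk5r1, for the activator p35 (-1.36, adjusted p = 0.0121, and -1.34, adjusted p = 0.0249). Cdk5 itself did not pass.

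**Figure D4:**
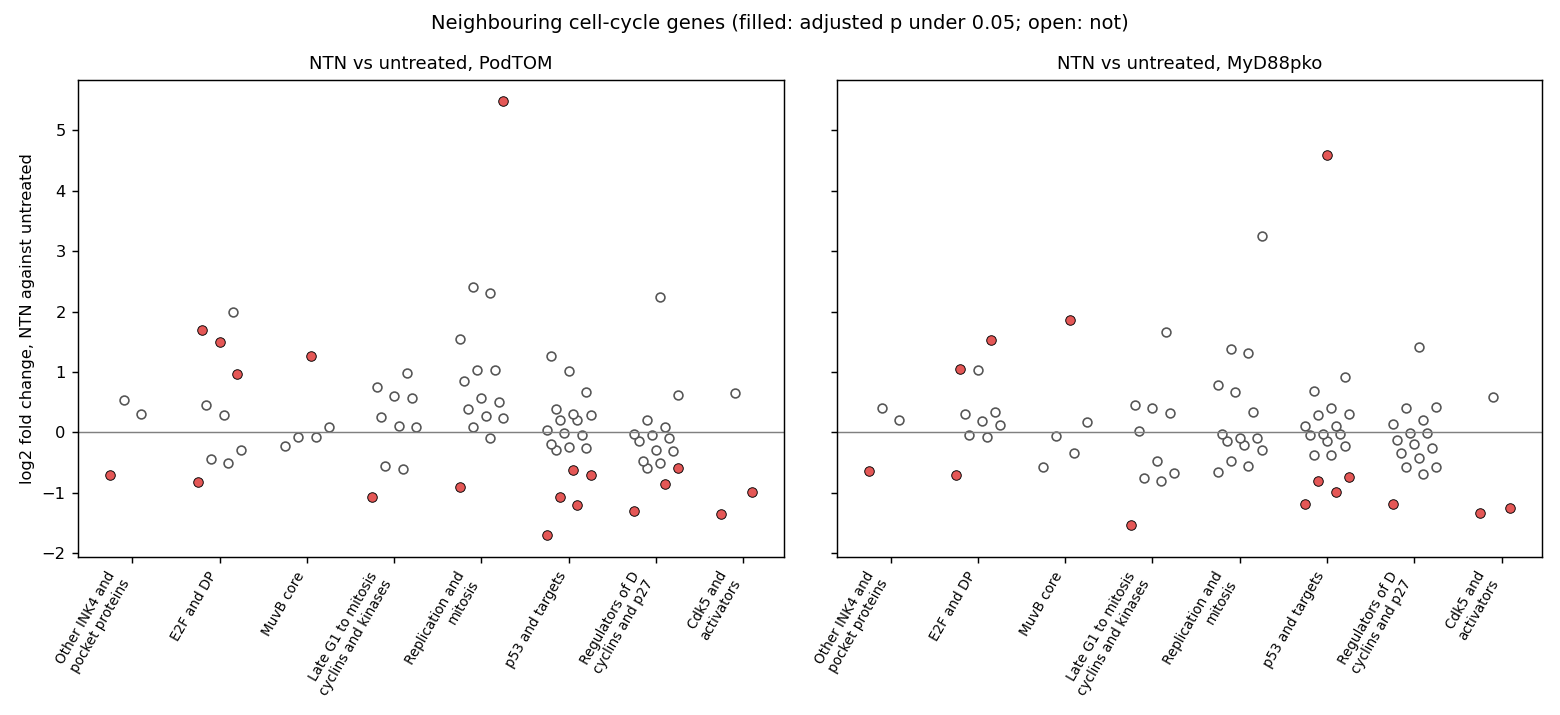
Log2 fold changes of NTN against untreated for the tested genes of 8 lists around the 10 members, in PodTOM (82 genes) and MyD88pko (81 genes), filled where the adjusted p is under 0.05. Genes without a count in the untreated group of a panel are left out. Most genes are open symbols near 0, and Mki67 is the filled symbol at 5.48 in PodTOM.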

How the data were processed

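The authors sorted podocytes by mTomato, amplified the RNA with the Ovation RNASeq System V2, prepared Nextera XT libraries, used cutadapt for trimming and kallisto to assign the reads to mouse transcripts. The values used were the deposited estimated counts and the effective lengths beside them, and per the labels the builds were mm10 and GRCm38. Of 109282 transcripts in each file, 107987 were matched to GENCODE annotation of GRCm38. The other 1295, with 0.467% to 0.638% of a library's counts, were left out. Counts were summed per gene, rounded and tested with the robust quasi-likelihood test of edgeR 4.0.16 (R 4.3.3) after filterByExpr with a minimum count of 10 and TMM scaling, with 1 coefficient for each of 4 groups over all 11 libraries. The Benjamini-Hochberg adjustment ran over all genes, or all transcripts, of a comparison, and the threshold was 0.05. A standard error (SE) is the fold change divided by the root of the F statistic, and intervals are at 95%. TPM were computed from counts and lengths. Replicate libraries differed by more than counting noise (chi-square per degree of freedom 9.34 to 83.4), and were numbered in accession order, so no pairing exists.

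Alternatives used size factors of DESeq2 1.42.0 in edgeR, the DESeq2 Wald test, no filter, limma 3.58.1 on log2(TPM + 1) for genes averaging 1 TPM or more, length-scaled counts, fits to the libraries compared alone, and fits without single libraries or without the 3 libraries with most vomeronasal receptor reads. The main edgeR fit and the DESeq2 and limma fits of genes were tried on simulated data. This covered NTN against untreated in PodTOM and MyD88pko against PodTOM with NTN. The other comparisons, the other alternatives and the transcript fits were not simulated. The members and gene lists were chosen with earlier results of these data known. Named by rule are all members, their transcripts with at least 10% of a gene's counts, other genes of lists of 5 or fewer, and Myd88. The rule also names up to 4 genes per pathway list with the smallest adjusted p under 0.05 in nephritic against untreated PodTOM podocytes. Trp53, Perp, Eda2r and the marker genes were named outside this rule, after their values were seen. Genes that overlap a member were named for that overlap. Bounds and counting intervals cover counting error only. The labels mention a pool of 6 libraries without naming them, so no batch could be entered. Tables were handled in Python 3.11.15 with pandas 2.3.3.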

Additional observations from a re-analysis of the deposited data

How the results depend on the processing

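Ccnd1, Cdk6 and Cdkn1c in both genotypes and Rb1 in PodTOM podocytes kept their direction and their call with NTN under all 18 alternatives. The number of the 10 genes called with NTN stayed between 5 and 6 in PodTOM and between 3 and 4 in MyD88pko when 1 library was left out, and fell to 4 and 3 without the 3 libraries with most vomeronasal receptor reads. Named transcripts called ranged from 2 to 6 in PodTOM and from 2 to 4 in MyD88pko when 1 library was left out. Changes of sign occurred in values that did not pass. On log2(TPM + 1) these were 0.15 for Ccnd1 and 0.41 for Cdk4 in the difference of responses, -0.19 for Cdk4 with NTN in PodTOM, 0.03 for Cdkn1b between untreated genotypes, 0.05 for Myd88 with NTN in MyD88pko and 0.15 for Rb1 between nephritic genotypes. With length-scaled counts they were 0.25 for Cdk4, 0.02 for Cdkn1b and 0.18 for Myd88 in those same comparisons (Cdk4 in the difference of responses). Without the 3 libraries they were 0.17 for Ccnd1 and 0.22 for Cdk4 in the difference of responses, 0.04 for Ccnd3 with NTN in PodTOM, and 0.75 for Cdkn2c and 0.22 for Rb1 between nephritic genotypes. When 1 library was left out, the difference of responses ranged from -0.31 to 0.05 for Ccnd1, -0.23 to 0.65 for Ccnd2, -0.48 to 0.01 for Cdk4, -0.78 to 0.02 for Cdkn1a, -0.80 to 3.74 for Cdkn2c and -1.62 to 0.63 for Myd88. The nephritic genotypes differed by -0.10 to 0.26 for Ccnd1, -0.11 to 0.20 for Cdk6, -1.31 to 0.28 for Cdkn2c and -0.18 to 0.05 for Rb1, and the untreated ones by -0.34 to 0.06 for Ccnd3, -0.53 to 0.27 for Cdkn1a, -0.27 to 0.17 for Cdkn1b and -0.07 to 0.08 for Cdkn1c. With NTN, Ccnd3 in PodTOM ranged from -0.23 to 0.15 and Myd88 in MyD88pko from -1.03 to 1.22. The call of Myd88 between untreated genotypes was lost in 8 alternatives (adjusted p = 0.0767 to 0.478) and between nephritic genotypes in 2, with length-scaled counts (-3.47, adjusted p = 0.0571) and without the 3 libraries (-4.52, adjusted p = 0.257), and its direction was kept in each. Counts over all genes moved more. With NTN in PodTOM, 5487 genes were called and 2686 without the 3 libraries. In MyD88pko these were 4133 and 929. Single libraries moved them by over 1.5 times too, to 3269 in PodTOM without PodTOM NTN replicate 1, and in MyD88pko to 1638 and 1203 without untreated MyD88pko replicate 1 or 2 and to 2175 and 2460 without MyD88pko NTN replicate 1 or 2, so the shares of all genes called move with them. Between nephritic genotypes 13 (3 to 61 without 1 library) were called with edgeR, 131 with DESeq2 and 177 without a filter, and between untreated genotypes 4, 37 and 137. In the difference of responses the counts were 1, 44 and 92. The causes were not tested. No paired analysis was possible because the labels give the libraries no shared replicate numbers.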
